A study of Drosophila melanogaster with 2 samples.

Results

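The genes examined were 33 members of the Polycomb group, the trithorax group and the chromatin remodelling machinery of Drosophila melanogaster, and the measurement was binding of pan, the fly TCF, around them. The members came from a fixed list of gene names, and all 33 were found among the 13968 protein-coding genes on chromosome arms 2L, 2R, 3L, 3R, 4, X and Y; calypso is annotated as caly. Each gene was scored by the peak summits in its gene body and 2 kb either side, called its territory here, and by the summits within 1 kb of any of its annotated transcription start sites (TSSs). The material was whole embryos aged 0 to 24 h of a strain carrying an insertion that expresses pan fused to enhanced GFP, and chromatin was precipitated with an antibody against GFP. There was 1 group, with 2 biological replicates of the same strain and no second condition. Because whole embryos of all ages were pooled, binding in a few cells and weak binding in many cells cannot be told apart, and only the fusion protein was precipitated.

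Polycomb proteins keep developmental genes repressed through cell division, and trithorax proteins keep them active. Polycomb repressive complex 1 (PRC1) binds and compacts nucleosomes and ubiquitinates histone H2A, whereas PRC2 methylates histone H3. Trithorax proteins include histone methyltransferases and the ATP-dependent remodellers built around brm. Pan carries the Wingless (Wnt) signal to DNA: with the coactivator armadillo it activates targets, and with Groucho it represses them. Several members are known from Wingless biology in imaginal discs, where osa-containing brm complexes restrain Wingless targets and the Mediator subunits skd and kto are needed for their activation.

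The pooled conservative list, the authors' stricter list of peaks that recurred between replicates, held 6359 peaks on the arms. Of these, 66 had a summit in the territory of a member. Their pooled signal, the authors' peak value on a scale that the sources used here do not give, ran from 5.802 to 2660.4, with a median of 138, against a median of 120.0 over all 6359 peaks. Read depth is unknown from these files. The replicate values below come from each replicate's own ranked list, at the peak that overlapped the pooled peak by at least 50% of the shorter one. "Passing list" below means a list that the authors cut by IDR (irreproducible discovery rate), a measure of whether a peak holds its rank from replicate to replicate.

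Of the 33 members, 24 (72.7%) had a pan summit in the territory, where 39.7% of all protein-coding genes had one. A summit near an own TSS was found at 16 members, or 48.5%, against 25.6% of all protein-coding genes. Members are long genes, with a median length of 8.33 kb against 2.16 kb over all protein-coding genes, and a longer territory holds more summits. Among the 200 other protein-coding genes nearest in length to each member, an average of 54% had a territory summit and 35% had a summit near an own TSS. Genes of the same lengths would thus give 17.8 and 11.6 members. Some territory summits lay outside the gene and near the TSS of a neighbour. In the gene body or within 1 kb of an own TSS, 18 members (54.5%) had a summit. The shares were then 45.8% of genes of like length and 29.7% of all genes, a smaller excess than in the territory. That count was added after seeing the data. The members carried a mean of 2 summits, against 1.21 in genes of like length and 0.695 over all protein-coding genes; the median member carried 1. The comparison is a description of 1 list, and no test was run on it.

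The count at the territory was 21 members in the passing list of replicate 1, where 32.4% of all genes and 45.4% of genes of like length had a summit, and 23 in that of replicate 2, where these shares were 36.5% and 50.7%. At own TSSs the replicates differed more. Replicate 1 had 11 members, where 20% of all genes and 26.9% of genes of like length had a summit, and replicate 2 had 15, where the shares were 23.3% and 32.6%. In the longer pooled list 24 members had a territory summit, where 42.5% of all genes and 57.3% of genes of like length had one. At own TSSs the members numbered 16, where these shares were 28% and 38.5%.

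**Figure D1:**
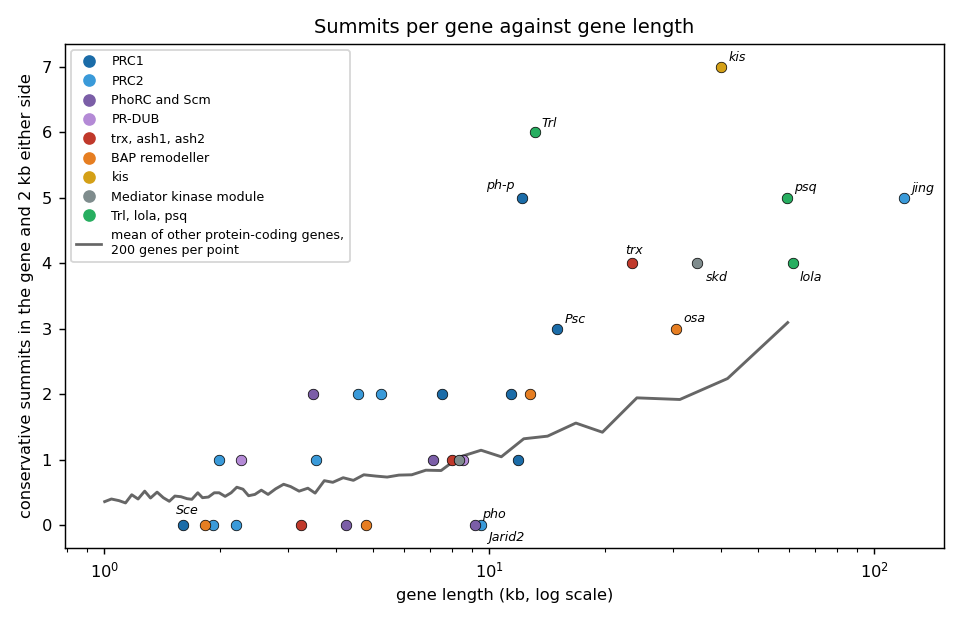
Conservative summits in each member's territory (vertical axis, number of summits) against gene length (horizontal axis, kb, log scale); each point is a member, coloured by complex, and the line is the mean of other protein-coding genes in sets of 200 by length. The long genes kis, Trl and ph-p, with 7, 6 and 5 summits, lie above the line, and the 9 members without a summit are all 9.49 kb long or shorter.

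The strongest peaks lay at few of the members. Of the 66 peaks, 8 (12.1%) were among the 100 strongest of the list, where those 100 make up 1.57% of all peaks. They lay at ash1, Caf1-55, ph-p (with a pair of peaks), phol, osa, Trl and brm. However, only 3 of these 8, those of ph-p and brm, lay within 1 kb of the TSS of the member itself. The 101 bp around the summit are printed for 1 peak of each of these 7 genes, because they are among the strongest of the whole list; the letters were read from the RefSeq copy of the dm6 assembly, forward strand, and capitals mark the TCF core in the ash1 peak and GCCAT, the core of the pho site, in the osa peak. The other 5 windows hold none of the 5 motifs searched.
ash1, chr3L:19590569-19590669: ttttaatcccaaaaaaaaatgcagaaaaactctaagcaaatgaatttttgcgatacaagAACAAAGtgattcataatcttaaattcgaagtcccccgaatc
Caf1-55, chr3R:15229480-15229580: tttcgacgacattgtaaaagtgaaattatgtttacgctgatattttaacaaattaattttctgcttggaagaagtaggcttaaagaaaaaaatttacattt
ph-p, chrX:2137311-2137411: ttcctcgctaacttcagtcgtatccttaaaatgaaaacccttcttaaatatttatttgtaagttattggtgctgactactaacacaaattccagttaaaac
phol, chr3L:9457749-9457849: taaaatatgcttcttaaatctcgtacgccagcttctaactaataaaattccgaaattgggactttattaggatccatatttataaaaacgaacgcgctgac
osa, chr3R:17704343-17704443: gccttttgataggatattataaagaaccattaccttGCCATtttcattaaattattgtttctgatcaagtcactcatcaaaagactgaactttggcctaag
Trl, chr3L:14759470-14759570: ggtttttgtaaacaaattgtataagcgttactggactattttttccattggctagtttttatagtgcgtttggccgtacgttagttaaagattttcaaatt
brm, chr3L:15982958-15983058: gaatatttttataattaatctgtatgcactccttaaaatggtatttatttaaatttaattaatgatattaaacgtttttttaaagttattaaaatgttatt

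The windows are rich in A and T: the GC content was 14.9% at brm, 25.7% at Caf1-55, 30.7% at ash1, 31.7% at both ph-p and Trl, 32.7% at osa and 33.7% at phol. Over all 66 member summits it was 37.7% ± 12.01 (SD, n = 66), close to the 35.9% ± 10.9 (SD, n = 6359) of all conservative summits. It was 44.6% ± 9.4 (SD, n = 132) in the windows 500 bp to either side of the member summits.

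**Figure D2:**
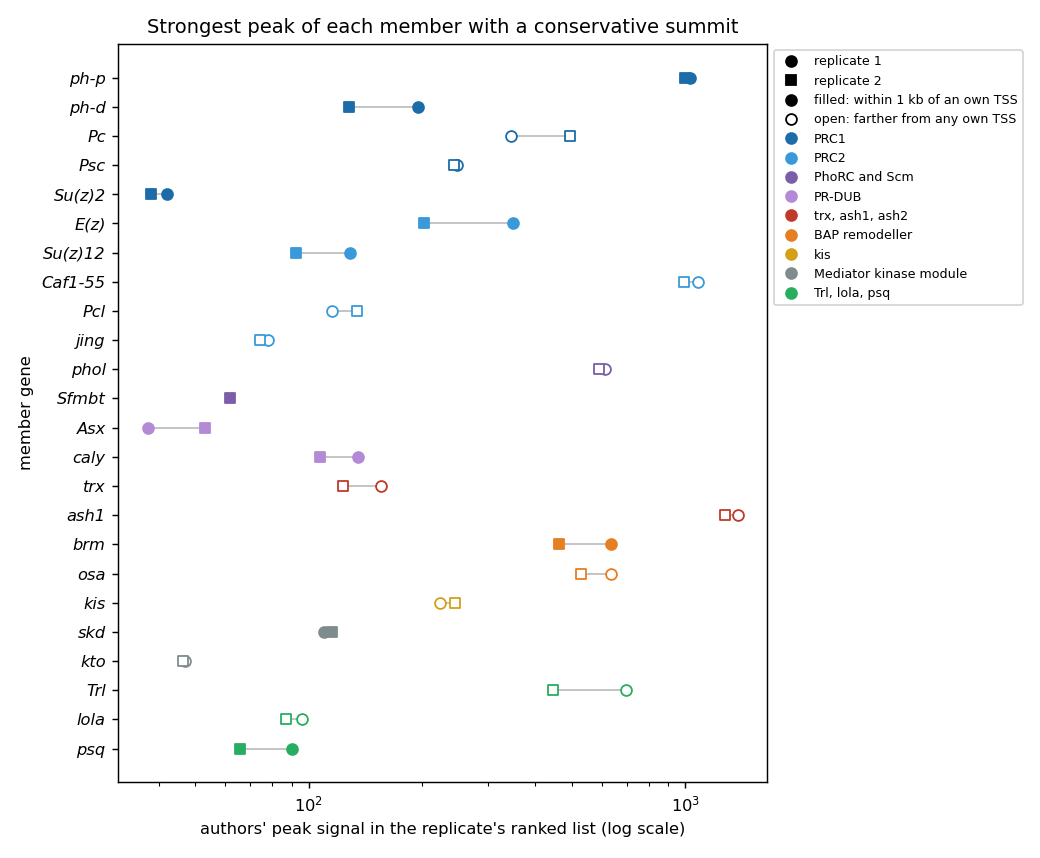
Signal of the strongest peak of each of the 24 members with a conservative summit, in replicate 1 (circles) and replicate 2 (squares), on a log scale; filled symbols lie within 1 kb of an own TSS, open ones farther away, and colours give the complex. The peak assigned to ash1 is the strongest in both replicates, at 1378 and 1278, and both of its symbols are open; for Sfmbt only replicate 2 had a peak that overlapped the pooled one by enough.

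Of the PRC1 genes, 5 of 6 had a summit, 13 summits in all. Depending on the member, 33.5 to 66% of genes of like length had one. The X-linked pair ph-p and ph-d encode the 2 polyhomeotic proteins of PRC1, and ph-p had the strongest peak of these 6 genes. It had a pooled signal of 2020.2 and ranked 9 in the list, with 1028.9 in replicate 1 and 1000.1 in replicate 2. Its summit lay inside the gene, 506 bp upstream of the nearest of 3 ph-p TSSs. A further summit 460 bp downstream of a ph-p TSS ranked 93, at 911 pooled, with 553 in replicate 1 and 353 in replicate 2. A peak 1 bp from a TSS was weaker, at 147 pooled, 105.7 in replicate 1 and 42.8 in replicate 2. Both remaining summits were intronic, at 322 and 168 pooled. All 5 ph-p peaks were in both replicates' passing lists.

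The neighbouring ph-d had its strongest peak 790 bp upstream of its TSS, at 329 pooled, 195 in replicate 1 and 128 in replicate 2. A peak 141 bp from a TSS had 91.4 pooled, 56.5 in replicate 1 and 40.5 in replicate 2. Thus ph-d was bound in both replicates, at a lower signal than ph-p in each. The window at the stronger ph-d summit holds a TCF core, CTTTG followed by 2 bases that are each A or T, shown in capitals.
ph-d, chrX:2124026-2124126: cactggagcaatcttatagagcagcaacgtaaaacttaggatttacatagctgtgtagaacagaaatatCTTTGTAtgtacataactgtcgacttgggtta

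The ph genes arose by a duplication, so reads could be shared between the copies. When each of the 66 member peaks was aligned to the genome, all 66 were found whole at their own place and 1, the strongest ph-p peak, had a further match. Its first 67 bp resemble a stretch that lies 342 to 407 bp upstream of a ph-d TSS, with 91.0% identity, 6 differing columns, 1 of them a gap, and an identical run of 41 bp. Both stretches are printed, with the differing bases in capitals, because they show how far the duplication reaches into this peak. In the second stretch 1 base of the first is missing.
ph-p stretch, chrX:2137195-2137261: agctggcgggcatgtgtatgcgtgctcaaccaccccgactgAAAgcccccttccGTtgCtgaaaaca
ph-d stretch, chrX:2123628-2123693: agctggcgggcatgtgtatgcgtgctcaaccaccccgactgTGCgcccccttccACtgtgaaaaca

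The ph-d copy of the stretch had no peak in the conservative or the longer pooled list. Its highest pooled ranked peak had a signal of 17.7, against 2020.2 for the ph-p peak. In replicate 1 it had a ranked peak of 5.94, and in replicate 2 no ranked peak. The ph-p summit itself lies outside the duplicated stretch, and no other match of this peak was found. The effect of shared reads on the values was not tested.

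**Figure D3:**
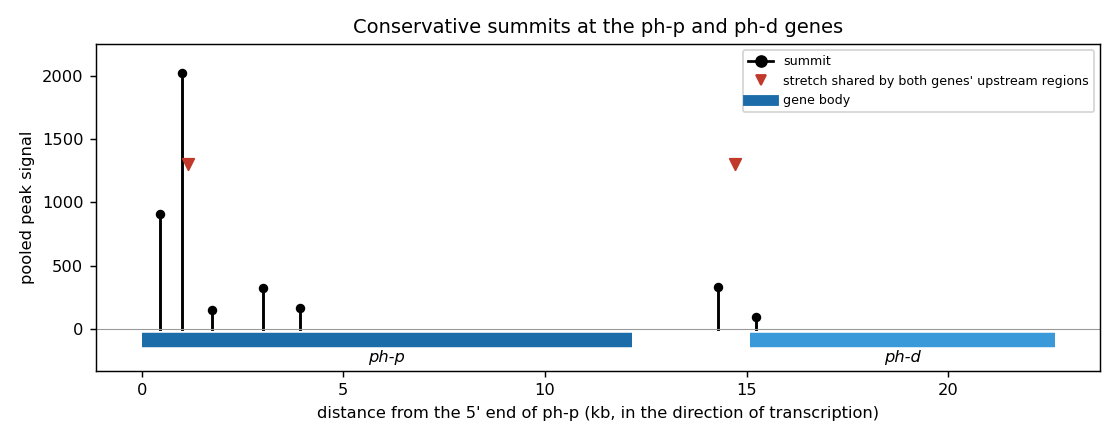
Pooled signal of the conservative summits (black lines) along the ph-p and ph-d genes (bars), against distance from the 5′ end of ph-p in the direction of transcription (kb); red triangles mark the duplicated stretch. The tall ph-p summit of 2020.2 stands beside the stretch, and the ph-d summit of 329 lies upstream of the second triangle.

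Psc, which encodes a RING-finger subunit of PRC1, had its main peak inside the gene. This intronic peak, 5073 bp from the nearest TSS, had 488 pooled, 248 in replicate 1 and 243 in replicate 2. The strongest Psc peak near a TSS, at 155 bp, had 129.6 pooled, 49.4 in replicate 1 and 69.5 in replicate 2, and passed in replicate 2 only. Its paralogue Su(z)2 was weakly bound. A peak 190 bp from its TSS had 85.9 pooled, 41.9 in replicate 1 and 38.1 in replicate 2, and it passed in neither replicate. The longer pooled list also had a peak 13 bp from the Su(z)2 TSS with 110.1, and the passing list of replicate 2 had one at 21 bp with 71.2.

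Pc, whose chromodomain reads the histone mark made by PRC2, had 1 summit, and it was not at Pc itself. With 840.1 pooled, 344 in replicate 1 and 494 in replicate 2, this peak ranked 112. It lay 1565 bp beyond the 3′ end of Pc and 13447 bp from the nearest Pc TSS, but 85 bp from a TSS of CG11309 and 124 bp from a TSS of CG7632. Sce, the H2A ubiquitin ligase of PRC1, had no summit in the conservative list.

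PRC2 and its accessory factors had 11 summits at 5 of 8 genes. Among genes of like length, 36 to 74% had a summit, depending on the member. E(z), the methyltransferase, had the strongest own-TSS peak of these 8 genes. At 73 bp from that TSS, it had 554 pooled, 348 in replicate 1 and 202 in replicate 2. The same summit lies 89 bp from a TSS of Cnep1r2, so it cannot be assigned to E(z) alone. Su(z)12, a core subunit, had 232 pooled, 129 in replicate 1 and 92.7 in replicate 2 at 138 bp from its TSS, a summit that is also 347 bp from a TSS of Pfdn6. A second summit at Su(z)12, 64 bp from its TSS, had a pooled signal of only 5.802, the lowest of the 66.

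Caf1-55, a histone-binding subunit of PRC2 and of other complexes, came out with the peak that ranked 8 in the list. It had 2069.5 pooled, 1080.5 in replicate 1 and 990.2 in replicate 2. The summit was 1966 bp beyond the 3′ end of Caf1-55, close to the limit of 2 kb, and it lay 122 bp from a TSS of Art3 and 135 bp from a TSS of mRpS10. Pcl, a PRC2 accessory protein, also had only downstream peaks, both near pAbp. The stronger, 469 bp from a pAbp TSS, had 244 pooled, 115.2 in replicate 1 and 135 in replicate 2, and the other, at 83 bp, had 108.1 pooled.

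jing, a zinc-finger gene of 119.8 kb whose mammalian counterpart is a PRC2 cofactor, had 5 summits, all of modest signal. Its strongest peak, 1508 bp upstream of the TSS, had 157 pooled, 77.7 in replicate 1 and 74.3 in replicate 2. At 168 bp from the TSS it had 103.7 pooled, 32.6 in replicate 1 and 58.5 in replicate 2, passing in replicate 2 only. That summit was nearer, at 66 bp, to a TSS of lncRNA:CR46075. The PRC2 subunit genes esc and escl, a pair of paralogues, and Jarid2 had no summit.

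Of the genes for the pho-repressive complex and its partner Scm, 2 of 4 had a summit. For genes of like length the share was 38.5 to 59.5%, depending on the member. phol, a DNA-binding paralogue of pho, lay next to a peak that ranked 47, with 1204 pooled, 612 in replicate 1 and 589 in replicate 2. This summit was 1518 bp upstream of the phol TSS, but 113 bp from a TSS of CG3552 and 130 bp from a TSS of CG3437. A weaker peak 996 bp beyond the 3′ end of phol, with 121.6 pooled, 64.9 in replicate 1 and 48.6 in replicate 2, was 69 bp from a TSS of ghi. Its window holds TATCGATA, the DRE motif of many housekeeping promoters, in capitals.
phol, chr3L:9451757-9451857: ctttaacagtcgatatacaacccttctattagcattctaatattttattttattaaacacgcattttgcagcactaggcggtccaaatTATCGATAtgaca

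Sfmbt, the partner of pho in this complex, had 1 weak peak 69 bp from its TSS. It had 71.9 pooled and 61.7 in replicate 2. In replicate 1 no ranked peak overlapped it by 50%, although that replicate's passing list had a summit 305 bp from the TSS with 48.05. The pooled summit was also 296 bp from a TSS of CG5439 and 431 bp from one of CG43925, and it holds TATCGATA too. pho itself, the main DNA-binding Polycomb protein, lies on chromosome 4 and had 0 ranked peaks in its territory in either pooled list. Scm had no summit.

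Both genes of the Polycomb H2A deubiquitinase had a summit within 1 kb of an own TSS and also of another gene's TSS. An own-TSS summit was found at 23.5% of genes of like length to caly and 38.5% of those of like length to Asx. caly, the catalytic subunit, had 258 pooled, 135 in replicate 1 and 107 in replicate 2 at 551 bp from its TSS, but at 158 bp from the TSSs of CG42837 and Lipt1. Asx, its partner, had 85.3 pooled, 37.4 in replicate 1 and 52.9 in replicate 2 at 24 bp from its TSS, and the summit was 446 bp from a TSS of Cpsf160. The Asx peak passed in neither replicate.

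The trithorax-group methyltransferase genes trx and ash1 had peaks in or next to them, with none of the conservative summits within 1 kb of an own TSS. The peak assigned to ash1 ranked 2 in the whole list, with 2660.4 pooled, 1378 in replicate 1 and 1278 in replicate 2. It lay 154 bp beyond the 3′ end of ash1 and 8136 bp from its TSS, and 95 bp from a TSS of CG14100. As printed above, it holds a TCF core on the reverse strand, read as AACAAAG on the strand shown. ash2, a subunit of the same class of methyltransferase complexes as trx, had no summit.

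trx had 4 conservative summits, and the highest signal in the gene was in none of them. The strongest conservative peak, intronic and 8815 bp from the TSS, had 294 pooled, 155 in replicate 1 and 123.5 in replicate 2. An upstream peak had 203 pooled, 113 in replicate 1 and 94.0 in replicate 2, and was 204 bp from a TSS of red. The others had 80.4 and 73.5 pooled. In addition, 4 intronic peaks passed a global IDR of 0.01 in a pooled ranked list but overlapped no peak of any passing list. The strongest, 3027 bp from the TSS, had 1094.5 pooled, 548 in replicate 1 and 545 in replicate 2, and only 56 conservative peaks had a higher signal; the pooled lists carry the same signal for the same peak. Its window, printed because it would be among the strongest in the list, holds a TCF core in capitals.
trx, chr3R:14283826-14283926: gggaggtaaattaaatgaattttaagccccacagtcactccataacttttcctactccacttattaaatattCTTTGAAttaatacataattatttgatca

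The other 3 such peaks at trx had 121.3, 87.6 and 86.3 pooled, at 2317, 1098 and 3617 bp from the TSS. The first of these is close to the median of 120.0 of the conservative list and the others are below it. All 4 lay nearer to the TSS than any conservative summit inside the gene. Over all arms 175 peaks passed the same limit and overlapped no peak of the pooled passing lists. Of these, 7 lay in member territories, all on 3R: 4 at trx, 2 at mor and 1 at osa. These 7 overlapped no peak of a replicate's passing list either. The spread of the 175 over the arms and the share of all genes with such a peak are not given here. mor, a core subunit of the brm remodeller, had no conservative summit. Its left-out peaks had 319 pooled, 189 in replicate 1 and 133 in replicate 2 at 1512 bp upstream of the TSS, and 74.7 pooled at 161 bp from the TSS. The weaker one had 49.2 in replicate 1 and no overlapping ranked peak in replicate 2, and it was 224 bp from a TSS of Hel89B. The left-out peak at osa had 51.5 pooled, 19.5 in replicate 1 and 32.5 in replicate 2. Why these peaks were left out was not tested; per the file headers, the passing lists also derive from a file that they do not describe.

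**Figure D4:**
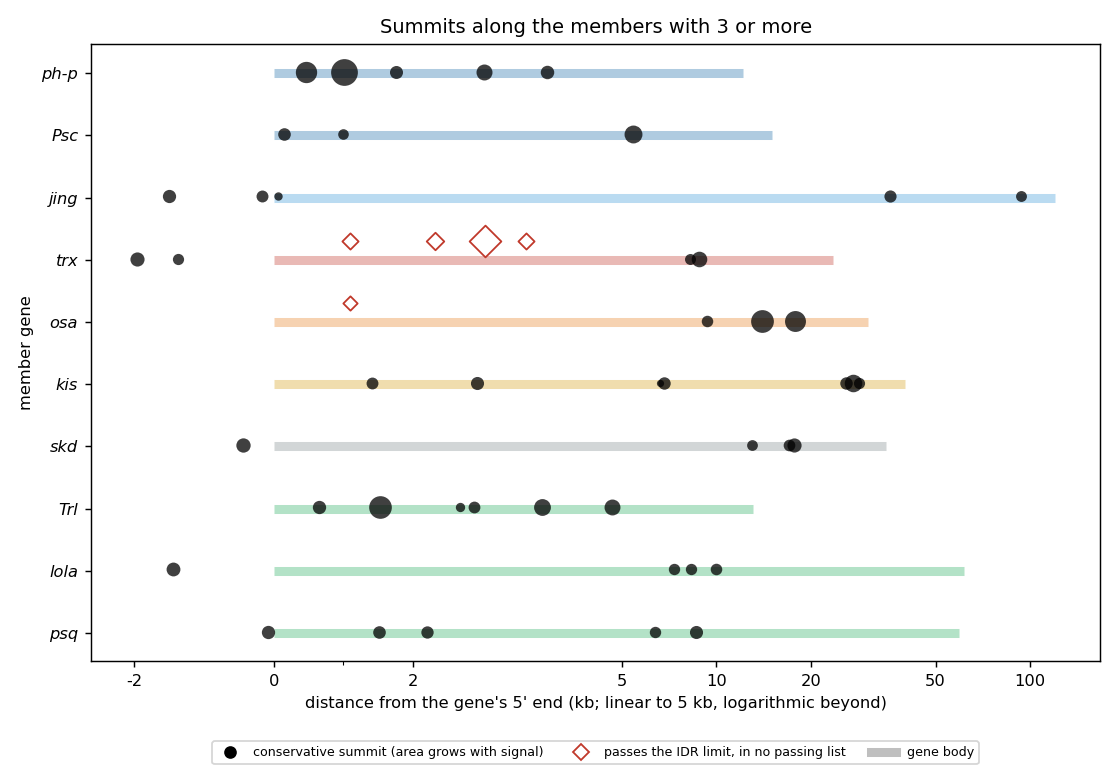
Summits along the 10 members with 3 or more, against distance from the gene's 5′ end (kb, linear to 5 kb and logarithmic beyond); dots are conservative summits with area growing with pooled signal, open diamonds are peaks that passed the IDR limit but are in no passing list, and bars are gene bodies. At trx the largest diamond, of 1094.5, exceeds every conservative dot of the gene.

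Of the 4 genes of the brm remodelling complex, 2 had conservative summits. For genes of like length the share was 32.5 to 70.5%, depending on the member. brm, the ATPase, had its stronger peak 139 bp upstream of its TSS, with 1093.9 pooled, 635 in replicate 1 and 463 in replicate 2, and it ranked 57. Its summit was 127 bp from a TSS of Arl1. A further peak inside brm had 243 pooled, 122.03 in replicate 1 and 115.1 in replicate 2, near the TSSs of CG17029 and CG17028. osa, the ARID-domain subunit, had its peaks in the gene body, with none at its TSS. The strongest had 1147.6 pooled, 633 in replicate 1 and 528 in replicate 2, and lay 13957 bp from the TSS. Its summit was also 698 bp from a TSS of lncRNA:CR46035 and inside that gene. The next, at 17772 bp, had 854 pooled, 465 in replicate 1 and 401 in replicate 2, and was 163 bp from a TSS of lncRNA:CR46036. The weakest had 88.9 pooled. Snr1, another core subunit, had no conservative summit.

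In the conservative list kis, a CHD-family ATPase of 40.1 kb, had 7 summits, the most of any member there. The longer pooled list had 6 at kis, against 8 at Trl and 7 at each of ph-p and psq. In the replicates' passing lists kis had 4 and 5 summits, fewer than ph-p, Trl and psq in each. The strongest conservative kis peak was inside the gene, 41 bp from a TSS of lncRNA:CR44222. It had 454 pooled, 223 in replicate 1 and 244 in replicate 2. At 419 bp from an own TSS kis had 78.8 pooled, 33.7 in replicate 1 and 46.2 in replicate 2, and this peak passed in replicate 2 only. The remaining 5 ranged from 8.31 to 150.4 pooled. The weakest of these overlapped a stronger kis peak and had no value in either replicate.

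The Mediator kinase-module genes skd and kto differed in the position of their peaks. skd had 4 summits; that at 435 bp from its TSS had 213 pooled, 109.9 in replicate 1 and 115.06 in replicate 2, and it was 46 bp from a TSS of Pdss2. Its 3 intronic peaks had 204.8, 94.97 and 67.5 pooled. kto had 1 summit, 290 bp beyond its 3′ end and 59 bp from a TSS of Papss, with 80.4 pooled, 46.8 in replicate 1 and 46.4 in replicate 2.

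The BTB-domain genes Trl, lola and psq all had summits near an own TSS, where 37 to 40% of genes of like length had one. They had 15 summits in all. Trl, which encodes the GAGA factor, had 6 in 13.1 kb. The strongest was intronic, 1529 bp from the nearest TSS, with 1130.5 pooled, 694 in replicate 1 and 444 in replicate 2, and it ranked 53. The strongest near a TSS, at 136 bp, had 389 pooled, 188 in replicate 1 and 194 in replicate 2. Its summit was also 762 bp from a TSS of CG42507 and inside that gene. Another peak, intronic and 1144 bp from the nearest TSS, had 317 pooled, 189.9 in replicate 1 and 129 in replicate 2. A peak 213 bp from TSSs of Trl and of CG42507 had 98.5 pooled, 49.4 in replicate 1 and 59.8 in replicate 2. The last 2 hold TCF cores, and the weaker one also holds a pair of GAGAG pentamers, the sequence that the GAGA factor itself recognises. Both windows are printed with these letters in capitals.
Trl intron, chr3L:14756142-14756242: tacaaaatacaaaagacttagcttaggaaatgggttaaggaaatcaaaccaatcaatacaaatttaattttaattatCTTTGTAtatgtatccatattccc
Trl near TSS, chr3L:14758125-14758225: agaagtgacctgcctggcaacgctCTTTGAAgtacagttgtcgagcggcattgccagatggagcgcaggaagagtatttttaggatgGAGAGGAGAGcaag

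psq, whose product also binds GAGA sequences, had 5 summits over 59.4 kb. That at 74 bp from its TSS had 159.8 pooled, 90.5 in replicate 1 and 65.7 in replicate 2, and no other gene's TSS lay within 1 kb. lola, which encodes many BTB zinc-finger isoforms, had its strongest peak 1440 bp upstream of a TSS, with 187 pooled, 96.0 in replicate 1 and 87.0 in replicate 2. The strongest conservative lola peak near a TSS, at 912 bp, had 84.6 pooled, 42.1 in replicate 1 and 45.6 in replicate 2. It passed in replicate 2 only. Its summit was also 716 bp from a TSS of snoRNA:lola-a and 961 bp from one of snoRNA:lola-b. Another lola peak, 431 bp from a TSS, was in the longer pooled list with 102.3, and the passing list of replicate 1 had it at 430 bp with 96.1.

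Across the list, 26 of the 66 summits (39.4%) lay within 1 kb of an own TSS and 16 (24.2%) were that close only to another gene's TSS. A further 20 were intronic, 3 intergenic and 1 in a coding exon. In total 22 summits (33.3%) were outside the body of any member. The shares of these positions over all conservative peaks are not given here, so the counts describe the members only. Among the 24 members with a summit, 8 (33.3%) had none near an own TSS: Pc, Caf1-55, Pcl, phol, trx, ash1, osa and kto. The same held for 35.6% of the 5549 protein-coding genes with a territory summit. At Pc, Caf1-55, Pcl, phol, ash1 and kto every summit lay outside the gene body. At 10 of the 16 members with a summit near an own TSS, the strongest such peak also fell in the 1 kb window of a further gene's TSS. These peaks cannot be assigned to 1 gene from position alone, and the share over all genes is not given here.

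The 9 members with no summit were Sce, esc, escl, Jarid2, pho, Scm, ash2, mor and Snr1. They were shorter, with a median length of 3.25 kb and a range of 1.599 to 9.49 kb, against a median of 11.6 kb for the 24 with a summit. All but pho had ranked peaks in their territories. At a looser global IDR of 0.05, left-out peaks were also found at esc, 42 bp from its TSS with 40.6 pooled, 24.9 in replicate 1 and 37.5 in replicate 2, at Snr1, 143 bp from its TSS with 53.6 pooled, and at Sce, 390 bp from its TSS with 58.7 pooled.

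The conservative list was chosen by the authors for recurrence between replicates, so recurrence of the member peaks was partly set by that choice. Of the 66 member peaks, 41 (62.1%) were in both replicates' passing lists, 2 in that of replicate 1 only, 11 in that of replicate 2 only and 12 (18.2%) in neither. Over all 6359 conservative peaks, 53% were in both and 20.9% in neither. Of the strongest conservative own-TSS peaks of the 16 members that have one, 9 were in both lists, 5 in that of replicate 2 only (Psc, jing, Sfmbt, kis and lola) and 2 in neither (Su(z)2 and Asx). A value was found in both replicates for 60 of the 66 peaks. The replicate signals come from separate lists on a scale that is not stated, so they are set side by side and not tested against each other.

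**Figure D5:**
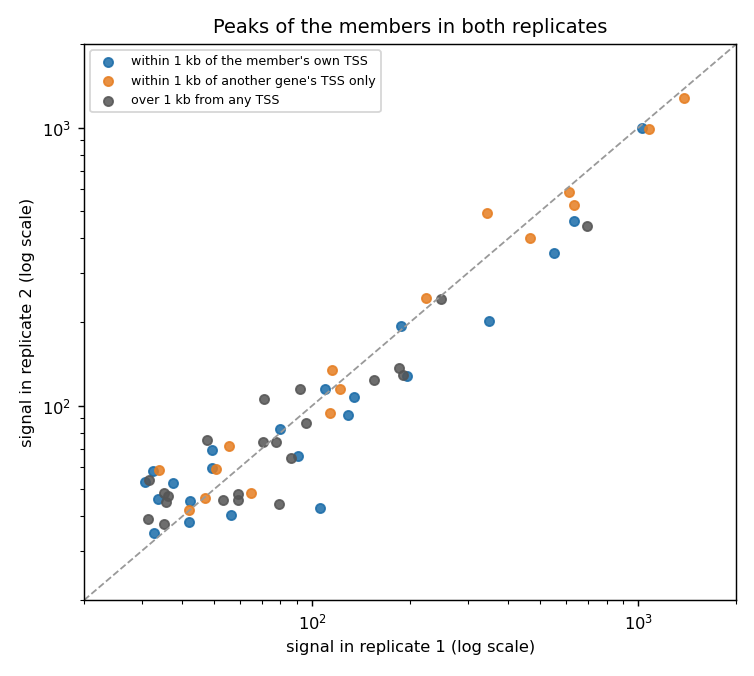
Signal in replicate 2 against replicate 1 (both log scale) for the 60 member peaks with a value in both; colours show whether the summit is near an own TSS, near another gene's TSS only, or over 1 kb from any TSS, and the dashed line marks equal values. The peak with the highest value in replicate 1, at 1378, also had the highest in replicate 2, at 1278.

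The TCF core was found within 50 bp of 8 of the 66 member summits, or 12.1% (95% exact Clopper-Pearson interval 5.38 to 22.5%, counting error only). The core was searched on both strands, as were the other motifs. It was present at 9.47% of all conservative summits. In the windows 500 bp to either side, its share was 4.55% for member summits and 7.64% for all conservative summits. GAGAG was found at 12.1% of member summits, 10.9% of all summits, 19.7% of the member flanks and 13.1% of the flanks of all summits. GCCAT was at 12.1% of member summits, 14.5% of all summits, 15.2% of the member flanks and 18.5% of the flanks of all summits. TATCGATA was at 2 member summits (3.03%), those at phol and Sfmbt described above, and at 1.54% of all summits. CAGGTAG, the Zelda motif, was at 0 of 66, where the exact interval reaches 5.44%, and at 0.362% of all summits. The intervals of the members hold the share of all summits for each of these motifs. The lower GC content of the summits moves with the lower share of GAGAG and GCCAT there than in the flanks, and with the higher share of the TCF core; its part was not tested.

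For the rest of the chromatin machinery, 78 genes in 8 further lists were scored the same way. A territory summit was found at 47 (60.3%), against 45.5% in genes of like length, and an own-TSS summit at 30 (38.5%), against 29.96%. The share in genes of like length is not given for each list. Territory summits were found at 7 of 10 other Polycomb genes and 9 of 13 genes of the trithorax-related methyltransferase complexes. They were also found at 6 of 8 further genes listed with the brm complexes, 3 of 7 genes of ISWI complexes and 6 of 7 CHD and NuRD genes. The remaining lists had them at 5 of 10 INO80 and Tip60 genes, 7 of 15 other Mediator genes and 4 of 8 heterochromatin genes. The strongest peak among the 78 genes was at the gene for heterochromatin protein 1a, with 1293 pooled, 650.4 in replicate 1 and 644 in replicate 2. It lay 1893 bp from the TSS of that gene and nearer to TSSs of CG8360 and CG8372. MRG15 had 628 pooled, 385 in replicate 1 and 243 in replicate 2, at 2732 bp from its TSS and nearer to those of Cp190 and CG4338. Mi-2, the NuRD ATPase, had 596 pooled, 279 in replicate 1 and 308 in replicate 2, at 6926 bp from its TSS. At an own TSS, Ino80 had 458 pooled, 250.4 in replicate 1 and 211 in replicate 2, at 98 bp, with a TSS of Aptx also within 1 kb. Dsp1, one of the other Polycomb genes, had 369 pooled, 231 in replicate 1 and 127 in replicate 2, at 613 bp. A TSS of CG9921 was also within 1 kb of that summit. MED27 had 316 pooled, 186 in replicate 1 and 127 in replicate 2, at 133 bp, with a TSS of elm also within 1 kb. Iswi, Set1, Tip60 and Cdk8, which encode catalytic subunits of their complexes, had no territory summit.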

How the data were processed

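Pan-eGFP chromatin immunoprecipitation and sequencing (ChIP-seq) was done on 2 biological replicates of sonicated whole embryos, with a size range of 200 to 800 per the labels. Reads were not used; the deposited data are peak lists on dm6, per the file headers. The authors supplied a ranked and a passing list for each replicate, and for the pooled replicates 2 ranked lists, a conservative list of 6366 peaks and a longer list of 7084 peaks. The signal of each peak is the authors' deposited value, on a scale that is not stated, so peaks were ranked by signal only within a list or among the pooled lists, where all 6359 conservative peaks on the arms had the same value in a ranked list; replicate values are given side by side. The ranked lists carry the −log10 of the global IDR, as deposited, capped at 5. Aligner, peak caller and read depth are not given in the sources used here, and the control named in the labels was not used. Peaks were called on each replicate and on the pool, per the file names the authors gave.

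Summits (start plus offset) were placed on genes of Ensembl release 115, whose assembly is dm6. Territories were the gene body and 2 kb either side, and TSS windows were 1 kb. Each member was set against the 200 other protein-coding genes nearest in length. Left-out peaks had a global IDR of 0.01 or less in a pooled ranked list and overlapped no passing pooled list. Motifs were searched within 50 bp of the summit and 500 bp to either side. Peaks were aligned to the genome with blastn 2.17.0, with an E-value limit of 0.001. Scoring used Python 3.11.15, numpy 2.4.6, scipy 1.17.1 and pandas 2.3.3, and was tested on simulated peaks.

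The members and lists were chosen with earlier results of these data known. All 33 members are accounted for. Values in the pool and both replicates are given for the strongest peak near an own TSS of each member that has one. The other members are given by their strongest peak. From the further lists, some of the 3 genes with the strongest peaks of a list are named, and from some lists none. Genes named for having no summit, left-out peaks and peaks beyond the strongest were chosen after their values were seen. With 1 group there is no comparison of conditions, and no p-value was computed. calypso and dalao were matched through RefSeq synonyms to caly and Bap111. Alternatives covered the other lists, each replicate alone, windows, peak strength, merged peaks, the number of like-length genes, motif windows and IDR limits; the count within gene bodies and own TSS windows, and the count without chromosome 4, were added after seeing the data.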

Additional observations from a re-analysis of the deposited data

How the results depend on the processing

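No paired analysis was possible because there is 1 group, so the replicate numbers pair nothing. The count of members with a territory summit was 24. It lay between 21 and 23 with either replicate's list alone, at 24 with the longer list or with overlapping peaks merged, and at 25 with the left-out peaks restored, which adds mor. With 5 kb either side it was 26, or 78.8%, against 65% of genes of like length and 54% of all genes, a smaller excess than with 2 kb. Within gene bodies only it fell to 15, against 32% of genes of like length and 15.2% of all genes, because 9 members (Asx, Caf1-55, Pc, Pcl, Sfmbt, ash1, caly, kto and phol) have no summit inside the gene. Within gene bodies or 1 kb of an own TSS it was 18, or 54.5%, against 45.8% of genes of like length and 29.7% of all genes. That excess over genes of like length was smaller than with the whole territory. The count near an own TSS, 16, lay between 11 and 15 with either replicate's list alone, and was 13, 15 and 18 with windows of 250, 500 and 2000 bp, where genes of like length gave 22.8, 29.8 and 41.4% and all genes 17.2, 21.8 and 31.9%. Among the stronger peaks by signal it was 10, against 21.3% of genes of like length and 16.1% of all genes, with Asx, Sfmbt, Su(z)2, jing, kis and lola lost, and the unique summits numbered 38 in place of 66. The share in genes of like length, 54%, was 45.4 to 50.7% with either replicate's list alone. The median signal percentile of member peaks, 58.9, was 54.4 to 70.6; it was 70.6 in the list of replicate 1. With windows of 100 bp either side, the TCF core was at 24.2% of member summits and 16.8% of all summits, and GAGAG at 27.3% and 24.3%. At a global IDR of 0.05, 34 peaks in no pooled passing list lay in member territories, of 4858 on the arms. At 0.01 these numbers were 7 and 175. The cause of the other shifts was not tested. Depth is unknown, so absence of a summit means only that none passed the authors' threshold.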
